A study of Homo sapiens with 24 samples.

Results

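The integrin, laminin and collagen genes of HCT-116 colon carcinoma cells were examined on whole genome arrays after treatment with butyrate, doxycycline or both agents. The members are the gene probes whose name begins with ITGA or ITGB, with LAMA, LAMB or LAMC and a digit, or that has the form COL, number, A, number. The rule used names only and found 87 genes among 27274 on the array, measured by 121 of 34127 probes. These comprised 43 collagen chains, 18 integrin alpha subunits, 8 integrin beta subunits and 13 laminin genes, the pseudogene LAMB2L included. A further 5 genes carry an integrin in their name without being a subunit.

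All 24 samples came from 1 clone of HCT-116 cells that carries stable vectors for the Tet repressor and for DN-Tcf4, a Tcf4 without its beta-catenin binding domain that is induced by doxycycline and represses Wnt activity. Per the study's methods the clone had been selected with zeocin and blasticidin. The cells were left untreated (Ctl), given 5 mM sodium butyrate (NaB), 4 μg/ml doxycycline (Doxy) or both agents (DoxyNaB), in 6 experiments with 1 array per treatment. Per the study's methods doxycycline came first, and the cotreatment in which butyrate was added or left out then lasted 17.5 hr. In the study's western blot DN-Tcf4 was minimal with doxycycline alone and high with both agents. The comparison of NaB/Ctl with DoxyNaB/Doxy asks which butyrate responses depend on Wnt activity. There was no doxycycline-treated line without the vectors, so induced DN-Tcf4 and doxycycline itself cannot be told apart, and in bulk RNA fewer expressing cells and less RNA per cell cannot be told apart.

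Integrins are cell surface receptors made of an alpha and a beta subunit that tie the extracellular matrix to the cytoskeleton. Laminins, each a trimer of an alpha, a beta and a gamma chain, and the network-forming collagen IV build the basement membrane on which the colon epithelium sits, while the fibrillar collagens are made mainly by stromal cells. In hemidesmosomes, the anchoring junctions of epithelia, the receptor made of ITGA6 and ITGB4 and the transmembrane collagen COL17A1 hold the epithelial laminin that contains LAMA3 and LAMB3, to which the anchoring fibrils of COL7A1 are fastened from below.

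A level is the log2 of the processed spot signal minus the log2 of the array's 75th percentile, so that a change of 1.00 is a 2-fold change. By the scanner software's own test, an array had between 52.5% and 88.1% of its spots well above background, with 78.3% to 88.1% in experiments 2 to 4 and 52.5% to 62.4% in experiments 1, 5 and 6. Mean negative control signals were highest on the NaB array of experiment 3 and the DoxyNaB array of experiment 2 (161 and 248.9, against 48.4 to 115 on the other arrays). Of the epithelial markers KRT8, KRT18, KRT19, CDH1, CDX2, EPCAM and VIL1, 5 of 7 passed this test on all 24 arrays. Of 7 fibroblast, 5 endothelial and 4 leukocyte markers, none passed on all 24 arrays and none failed on all 24. The mean level over the fibroblast list was -6.65 to -5.95 on Ctl and -5.46 to -3.42 on NaB arrays, and those over the endothelial and leukocyte lists had highest Ctl values of -4.87 and -3.84 and highest NaB values of -3.15 and -2.23. The fibroblast marker THY1 passed the background test on 0 Ctl and 6 NaB arrays, and the part of these shifts in the results below was not tested.

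Of the 87 genes, 51 were tested, because a probe passed the background test throughout the 6 arrays of 1 or more treatments, and 35 passed it on all 24 arrays. A flagged spot did not count against a probe, so a filter on all 24 arrays kept 37, COL1A1 and LAMB3 among them with 23 passing arrays each. A gene could enter the test only through the treatment in which it was high, so the counts over the 51 genes are descriptions. The 36 genes not tested include 21 of the 43 collagens, among them the fibrillar chains COL1A2, COL2A1, COL3A1 and COL5A1. They also hold 7 integrin alpha subunits, the beta subunits ITGB2, ITGB3, ITGB6 and ITGB8, the laminin chains LAMA1 and LAMB4, and ITGB1BP3 and ITGBL1. COL3A1 and COL11A1 were well above background on 0 arrays. ITGA2, a collagen receptor subunit of epithelia, was well above background on 12 of 24 arrays and ITGB6, the epithelial partner of ITGAV, on 3 or fewer arrays of each treatment, and neither was compared.

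In NaB/Ctl, 16 of the 51 genes rose and 5 fell by more than 2-fold at a Benjamini-Hochberg adjusted p under 0.01 in limma, which is the meaning of "rose" and "fell" below. That is 31.4% higher and 9.80% lower, against 21% higher and 11.5% lower of the 15155 genes tested. In DoxyNaB/Doxy 17 rose and 6 fell, against 18.7% higher and 12.5% lower of all genes. The median change of the members was 0.54 in NaB/Ctl and 0.48 in DoxyNaB/Doxy, beside 0.17 and 0.11 over all genes. Among the 37 genes kept by the filter on all 24 arrays, 7 rose in NaB/Ctl and 9 in DoxyNaB/Doxy. The counts depended on how the arrays were scaled, and shares of all genes are not given for this filter or the other scalings. When the arrays were set to equal medians, which moved the median of all genes to -0.58 in NaB/Ctl and -0.45 in DoxyNaB/Doxy, 6 members rose and 14 fell in NaB/Ctl, and 7 rose and 12 fell in DoxyNaB/Doxy. With quantile normalization 7 rose and 6 fell in NaB/Ctl, and with normexp background correction 5 rose and 3 fell. ITGAX, ITGA7 and LAMA3 rose, and ITGB4, ITGB5 and LAMB1 fell, in both comparisons under all 4 of these scalings.

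**Figure D1:**
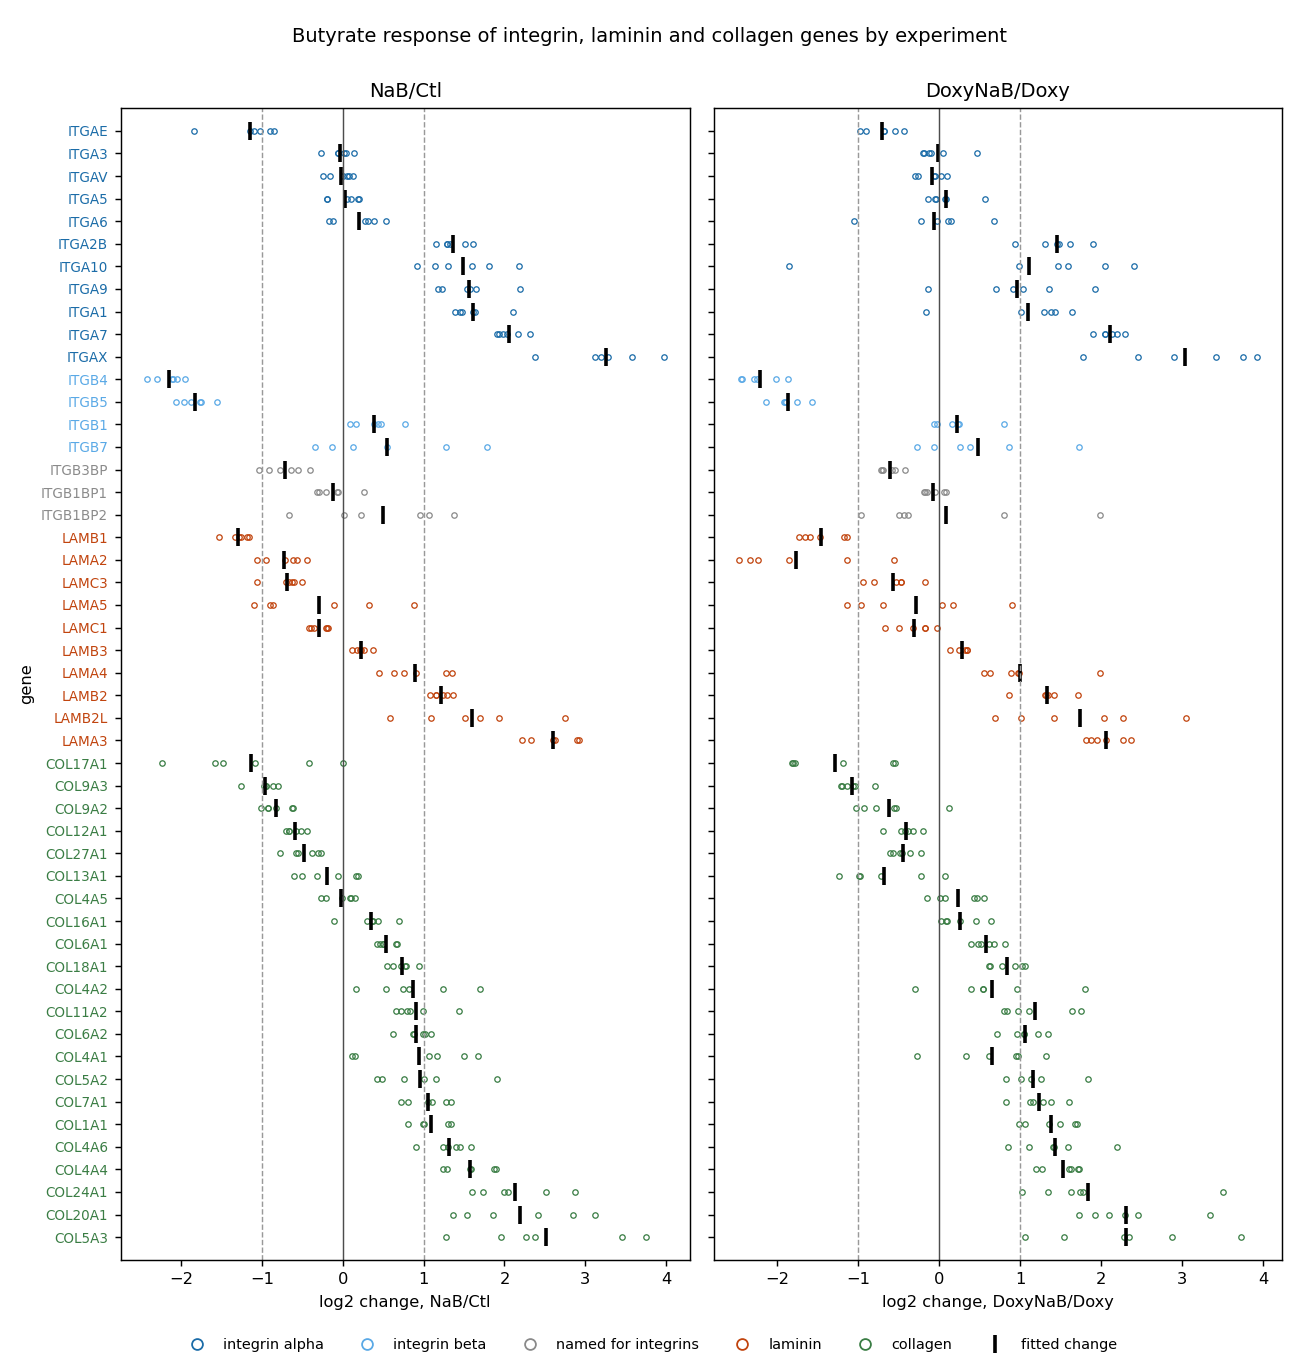
Log2 change of 50 of the 51 tested genes (vertical axis, coloured by family) in NaB/Ctl (left) and DoxyNaB/Doxy (right). Open circles are the experiments, black bars the fitted changes and dashed lines a 2-fold change. ITGB4 and ITGB5 lie beyond 2-fold below 0 in all 6 experiments of both comparisons, ITGAX, ITGA7 and LAMA3 beyond 2-fold above 0.

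Among integrin beta subunits, ITGB4 and ITGB5 fell and none of the 4 tested rose. ITGB4 is the hemidesmosome subunit, which pairs with ITGA6 only, and its probe lies at chr17:71265419-71265478 (plus strand, NCBI36, the build of the array files). Its level was 2.70 to 3.38 (median 2.86) on the 6 Ctl arrays and 0.68 to 0.95 (median 0.78) on the NaB arrays, and 2.93 to 3.34 (median 3.15) on the Doxy and 0.70 to 1.23 (median 0.88) on the DoxyNaB arrays. The arrays with and without butyrate did not overlap. The change was -2.16 ± 0.18 in NaB/Ctl (SD over 6 experiments, adjusted p = 4.78e-13), a level 4.47-fold lower, and -2.22 ± 0.23 in DoxyNaB/Doxy (adjusted p = 3.13e-13).

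ITGB5, which pairs with ITGAV in a vitronectin receptor, had levels of 1.85 to 2.44 (median 1.96) on Ctl and -0.21 to 0.58 (median 0.17) on NaB arrays. With doxycycline they were 1.93 to 2.59 (median 2.12) and, with butyrate added, -0.04 to 0.83 (median 0.17). Again every butyrate array lay below every array without butyrate. The probe (chr3:125965181-125965240, minus strand, NCBI36) changed by -1.84 ± 0.18 in NaB/Ctl (adjusted p = 4.48e-13) and by -1.87 ± 0.19 in DoxyNaB/Doxy (adjusted p = 3.26e-13).

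The alpha partners of these subunits did not pass the test. ITGA6 had levels of 0.90 to 1.44 (median 1.17) on Ctl and 1.12 to 1.54 (median 1.35) on NaB arrays, which overlapped, with a change of 0.20 ± 0.29 (adjusted p = 0.291). ITGAV had levels of 0.57 to 0.91 (median 0.82) and 0.57 to 0.95 (median 0.81), with a change of -0.02 ± 0.15 (adjusted p = 0.772). Set against each other on the same arrays, where the array scaling cancels, the change of ITGA6 minus that of ITGB4 was 2.36 ± 0.41 in NaB/Ctl and 2.15 ± 0.58 in DoxyNaB/Doxy, and that of ITGAV minus that of ITGB5 was 1.81 ± 0.10 and 1.77 ± 0.18. Each difference was positive in 6 of 6 experiments, so beta and alpha partner changed unequally in both pairs.

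ITGB1, the shared partner of most matrix-binding alpha subunits, had levels of 1.21 to 2.53 (median 2.44) on Ctl and 1.98 to 2.93 (median 2.58) on NaB arrays. The groups overlapped, and the change of 0.39 ± 0.24 in NaB/Ctl (adjusted p = 0.0045, higher in 6 of 6 experiments) stayed under 2-fold and became -0.36 when the arrays were set to equal medians. ITGA3, a laminin receptor subunit, and ITGA5, the fibronectin receptor subunit, changed by -0.03 ± 0.14 and 0.02 ± 0.18 in NaB/Ctl (adjusted p = 0.749 and 0.816). On Ctl arrays ITGA3 ran from 1.04 to 2.55 (median 1.31) and on NaB arrays from 1.18 to 2.28 (median 1.34), and ITGA5 from -0.51 to 0.58 (median -0.33) and from -0.46 to 0.38 (median -0.27). The highest value in each of these groups was that of experiment 1. The remaining tested beta subunit, ITGB7, a leukocyte subunit that pairs with ITGAE, changed by 0.54 ± 0.84 (adjusted p = 0.0817).

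**Figure D2:**
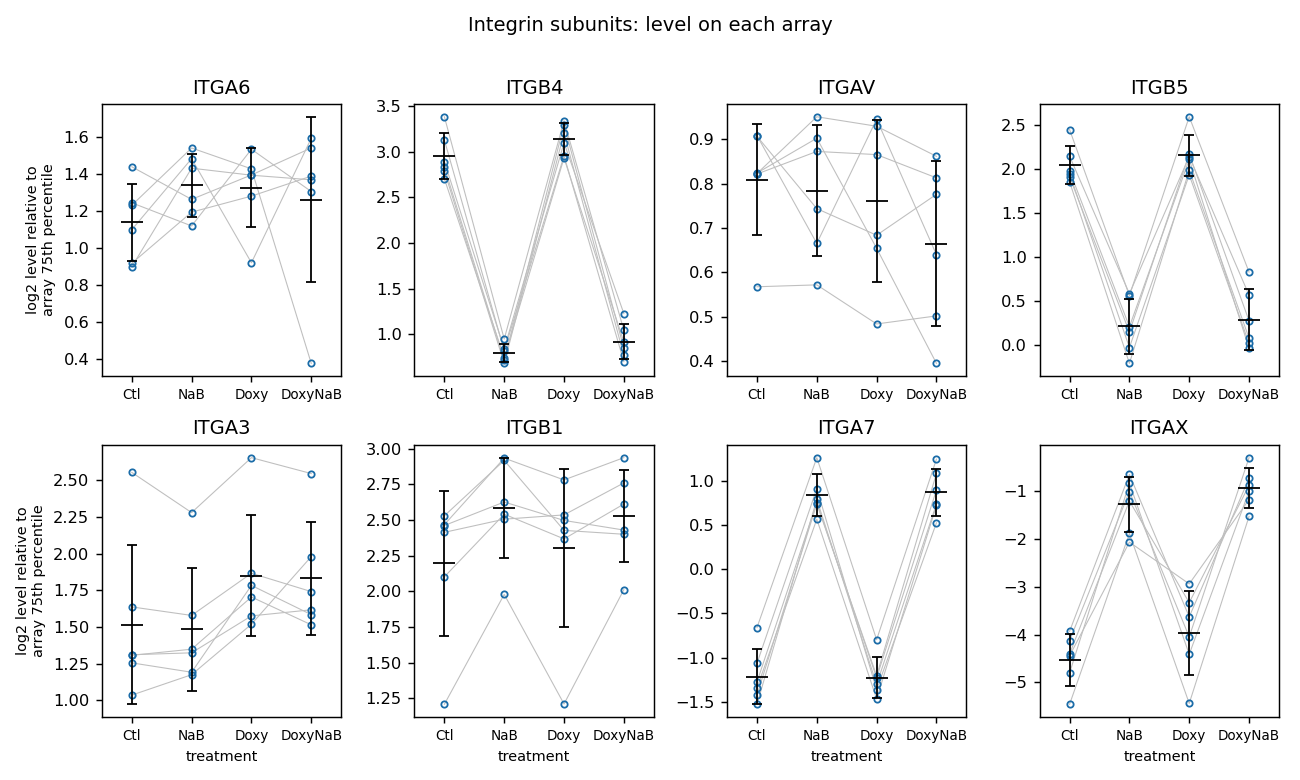
Level (log2, relative to the array's 75th percentile) of 8 integrin subunits under the 4 treatments; each circle is 1 array, grey lines join the arrays of an experiment, and the black marks give the mean and SD of 6 arrays. ITGB4 and ITGB5 were lower and ITGA7 and ITGAX higher on every butyrate array than on any array without butyrate, while the groups of ITGA6, ITGAV, ITGA3 and ITGB1 overlapped.

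Of 11 integrin alpha subunits tested in NaB/Ctl, 6 rose and 1 fell (54.5% and 9.09%, against 21% and 11.5% of all genes). The largest rise was that of ITGAX, a leukocyte integrin subunit known from macrophages and dendritic cells, whose probe lies at chr16:31301452-31301511 (plus strand, NCBI36). It passed the background test on 4 of 6 Ctl and 6 of 6 NaB arrays, at levels of -5.46 to -3.93 (median -4.42) and -2.06 to -0.65 (median -1.10). On Doxy arrays the level was -5.44 to -2.94 (median -3.84), and on DoxyNaB arrays -1.52 to -0.29 (median -0.94). The groups did not overlap in either comparison, and the changes were 3.25 ± 0.53 (adjusted p = 1.87e-09) and 3.03 ± 0.82 (adjusted p = 5.01e-09). With normexp correction ITGAX changed by 1.51 in NaB/Ctl, less than ITGA7 at 1.66. Its beta partner ITGB2 passed on 0 Ctl, 1 NaB, 2 Doxy and 1 DoxyNaB arrays and was not tested.

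ITGA7, a laminin receptor subunit known from muscle, passed the background test on all 24 arrays. Its level was -1.53 to -0.66 (median -1.31) on Ctl and 0.57 to 1.27 (median 0.78) on NaB arrays, and -1.47 to -0.80 (median -1.27) on Doxy and 0.53 to 1.25 (median 0.82) on DoxyNaB arrays. The groups lay apart by more than 1 log2 unit. The probe (chr12:54364687-54364746, minus strand, NCBI36) changed by 2.06 ± 0.16 in NaB/Ctl (adjusted p = 4.86e-13) and by 2.10 ± 0.14 in DoxyNaB/Doxy (adjusted p = 3.40e-13), with the same direction in 6 of 6 experiments of each.

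ITGA1, a collagen receptor subunit, and ITGA9, a receptor subunit for tenascin and osteopontin, were dim without butyrate. ITGA1 had levels of -5.73 to -4.73 (median -4.89, 4 of 6 arrays well above background) on Ctl and -3.63 to -3.18 (median -3.44) on NaB arrays, a change of 1.61 ± 0.26 (adjusted p = 2.44e-07), and it changed by 1.10 ± 0.65 in DoxyNaB/Doxy, a call that was also lost under the 3 scalings named next. ITGA9 had levels of -4.75 to -4.39 (median -4.49) and -3.38 to -2.56 (median -2.93), a change of 1.56 ± 0.36 (adjusted p = 1.28e-05). Neither pair of groups overlapped in NaB/Ctl. Both NaB/Ctl calls were lost with normexp correction (0.33 and 0.41), quantile normalization (0.26 and 0.31) and scaling to the median (0.86 and 0.81). ITGA2B and ITGA10, the platelet and the cartilage subunit, made up the count of 6 with changes of 1.36 ± 0.17 and 1.49 ± 0.46. ITGA10 passed the background test on 4 of 6 Ctl arrays, and neither gene kept its call under all of these scalings. ITGB3, the partner of ITGA2B, was well above background on 2 of 24 arrays and was not tested.

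ITGAE, which with ITGB7 binds E-cadherin, was the alpha subunit that fell. Its level was 0.29 to 1.01 (median 0.49) on Ctl and -0.83 to -0.42 (median -0.59) on NaB arrays, with no overlap and a change of -1.15 ± 0.36 (adjusted p = 3.33e-08). In DoxyNaB/Doxy the change of -0.71 ± 0.21 was again negative in 6 of 6 experiments but under 2-fold (adjusted p = 1.62e-05). The difference between both responses was -0.44 ± 0.32 and did not pass the interaction test (adjusted p = 0.208). With normexp correction the NaB/Ctl change of ITGAE was just under 2-fold and not called, and with equal medians that in DoxyNaB/Doxy was -1.26 and called.

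Among laminin genes, 3 of 11 tested rose, the pseudogene LAMB2L among them, and 1 fell in NaB/Ctl. These are 27.3% and 9.09%, against 21% and 11.5% of all genes. LAMA3 and LAMB3 of the hemidesmosome laminin responded unequally. LAMA3, its alpha chain, had levels of -1.33 to -0.76 (median -1.07) on Ctl and 1.23 to 1.76 (median 1.63) on NaB arrays, and of -0.95 to -0.67 (median -0.80) on Doxy and 1.00 to 1.65 (median 1.27) on DoxyNaB arrays. Butyrate arrays and arrays without butyrate did not overlap. The probe (chr18:19788733-19788792, plus strand, NCBI36) changed by 2.60 ± 0.29 in NaB/Ctl (adjusted p = 1.61e-13), a 6.05-fold rise, and by 2.05 ± 0.22 in DoxyNaB/Doxy (adjusted p = 3.36e-12).

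LAMB3, the beta chain, overlapped between 0.40 to 1.25 (median 0.57) and 0.70 to 1.42 (median 0.81), with a change of 0.23 ± 0.09 (adjusted p = 0.0026). LAMB3 had a DoxyNaB value on 5 arrays, since 1 spot carried an outlier flag. With the arrays set to equal medians LAMB3 changed by -0.52 in NaB/Ctl. On the same arrays LAMA3 changed by 2.37 ± 0.30 more than LAMB3 in NaB/Ctl, in 6 of 6 experiments.

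LAMB1 and LAMB2 are the alternative beta chains of the laminins that carry LAMA5 and LAMC1, and they went opposite ways. LAMB1 had levels of 1.20 to 1.44 (median 1.38) on Ctl and -0.16 to 0.27 (median 0.01) on NaB arrays, and of 1.22 to 1.46 (median 1.39) on Doxy and -0.32 to 0.12 (median -0.12) on DoxyNaB arrays. The groups lay far apart, with changes of -1.30 ± 0.13 (adjusted p = 1.17e-10) and -1.46 ± 0.25 (adjusted p = 2.15e-11). LAMB2 had levels of 0.79 to 2.32 (median 1.12) on Ctl and 2.15 to 3.47 (median 2.31) on NaB arrays, which overlapped through the Ctl value of experiment 1, and it changed by 1.21 ± 0.10 (adjusted p = 4.01e-09), or by 1.28 with its other tested probe. In DoxyNaB/Doxy LAMB2 changed by 1.32 ± 0.27 (adjusted p = 1.19e-09). With the arrays set to equal medians these changes were 0.46 and 0.76, and neither was called. Between the chains the change of LAMB2 minus that of LAMB1 was 2.51 ± 0.18 in NaB/Ctl and 2.79 ± 0.47 in DoxyNaB/Doxy, positive in 6 of 6 experiments of each. LAMB2L, a pseudogene similar in sequence to LAMB2 whose probe may share its RNA, passed the background test on 3 of 6 Ctl arrays and changed by 1.60 ± 0.74 in NaB/Ctl. This call was lost without the replicate block and with normexp correction, quantile normalization and equal medians, which gave 0.22, 0.53 and 0.85.

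The partner chains of LAMB1 and LAMB2 were not called, except with the arrays set to equal medians, where LAMC1 and LAMA5 changed by -1.04 and -1.05 in NaB/Ctl and were. LAMC1, the most widely used gamma chain, had levels of 1.49 to 1.63 (median 1.58) on Ctl and 1.08 to 1.42 (median 1.32) on NaB arrays, with a change of -0.29 ± 0.11 (adjusted p = 0.0082). The groups did not overlap, but the change was under 2-fold. LAMA5, the alpha chain of the mature basement membrane, changed by -0.30 ± 0.79 (adjusted p = 0.315) and in no constant direction, between -1.11 and 0.88 by experiment.

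**Figure D3:**
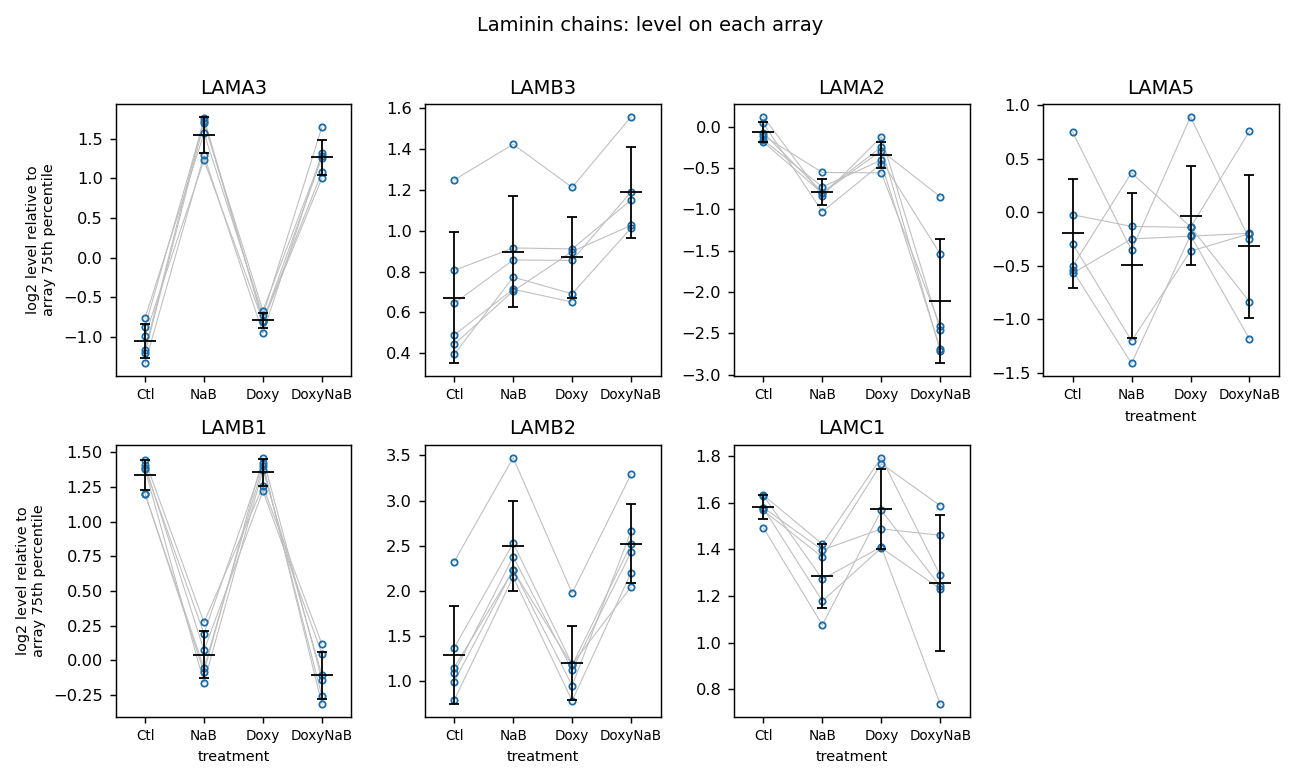
Level (log2, relative to the array's 75th percentile) of 7 laminin chains under the 4 treatments; circles are arrays, grey lines join the arrays of an experiment, black marks give mean and SD (6 arrays, 5 for LAMB3 with DoxyNaB). LAMA3 was above and LAMB1 below the arrays without butyrate on all butyrate arrays, and LAMA2 was lowest in DoxyNaB, where the array of experiment 2 lay highest.

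Sequence upstream of the transcription start is shown for the laminin chains with the clearest opposite responses. The stretches are from RefSeq (GRCh38.p14, 250 bases before the start, given 5′ to 3′ on the gene's strand), and capitals mark matches on either strand, overlaps included, to the AP-1 motif TGANTCA, the GC box GGGCGG and the TCF motif CTTTGAT. LAMA3 lies at chr18:23872770-23873019 (plus strand), LAMB1 at chr7:108003162-108003411 (minus strand) and LAMB2 at chr3:49133051-49133300 (minus strand). Each stretch belongs to 1 start of its gene, and whether the measured RNA began at that start was not tested.
LAMA3: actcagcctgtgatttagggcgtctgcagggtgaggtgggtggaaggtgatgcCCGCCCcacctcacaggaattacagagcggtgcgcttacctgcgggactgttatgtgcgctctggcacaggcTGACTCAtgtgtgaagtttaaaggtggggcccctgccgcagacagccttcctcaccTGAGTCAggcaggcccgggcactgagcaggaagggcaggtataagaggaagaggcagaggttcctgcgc
LAMB1: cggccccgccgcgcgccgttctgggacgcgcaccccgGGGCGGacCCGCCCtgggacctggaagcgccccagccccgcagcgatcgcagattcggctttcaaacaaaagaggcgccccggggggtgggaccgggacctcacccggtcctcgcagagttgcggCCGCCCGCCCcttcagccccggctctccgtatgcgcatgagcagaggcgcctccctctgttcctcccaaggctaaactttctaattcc
LAMB2: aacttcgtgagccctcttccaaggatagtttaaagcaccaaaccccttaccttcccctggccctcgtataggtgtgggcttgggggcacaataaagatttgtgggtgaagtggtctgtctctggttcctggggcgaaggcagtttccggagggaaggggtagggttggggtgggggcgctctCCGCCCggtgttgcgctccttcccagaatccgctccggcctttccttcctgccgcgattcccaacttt
The LAMA3 stretch held 2 AP-1 matches and 1 GC box match. The LAMB1 and LAMB2 stretches held 4 and 1 GC box matches and 0 AP-1 matches. Of 27305 such promoter stretches 6.60% held 1 or more AP-1 matches and 42.3% held 1 or more GC box matches. None of the 3 laminin stretches held a TCF match, which 2.28% of promoters do. Of the 51 tested genes 38 had a promoter entry. The AP-1 motif stood in 1 of the 10 that rose in NaB/Ctl and in 0 of the 4 that fell and 0 of the 24 others, and the GC box in 4, 2 and 14.

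Of 22 collagen genes tested, 7 rose and 1 fell in NaB/Ctl (31.8% and 4.55%, against 21% and 11.5% of all genes). In DoxyNaB/Doxy 10 rose and 2 fell (45.5% and 9.09%, against 18.7% and 12.5% of all genes). Within collagen IV, the network of basement membranes, the chains responded unequally. COL4A4 had levels of -1.99 to -1.71 (median -1.88) on Ctl and -0.55 to -0.09 (median -0.26) on NaB arrays, without overlap and on all arrays well above background. Its change was 1.57 ± 0.28 in NaB/Ctl (adjusted p = 2.08e-10) and 1.52 ± 0.23 in DoxyNaB/Doxy (adjusted p = 3.34e-10), and 0.82 and 0.96, not called, with the arrays set to equal medians. COL4A3, which assembles with COL4A4 and COL4A5, was well above background on 3 arrays of each treatment and was not tested.

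COL4A5 and COL4A6 are neighbours on the X chromosome whose starts lie 380 bases apart on opposite strands. COL4A6 had levels of -4.72 to -4.08 (median -4.35) on Ctl and -3.38 to -2.77 (median -3.07) on NaB arrays, a change of 1.31 ± 0.23 (adjusted p = 5.67e-08). COL4A5 had levels of -1.78 to -1.21 (median -1.36) and -1.63 to -1.22 (median -1.45), a change of -0.02 ± 0.17 (adjusted p = 0.838). The COL4A6 groups did not overlap, the COL4A5 groups did. On the same arrays COL4A6 changed by 1.34 ± 0.28 more than COL4A5 in NaB/Ctl and by 1.20 ± 0.33 in DoxyNaB/Doxy, in 6 of 6 experiments of each. COL4A6 passed the background test on 4 of 6 Ctl arrays, and its change in NaB/Ctl shrank to 0.28 with normexp correction, 0.04 with quantile normalization and 0.56 with equal medians. In DoxyNaB/Doxy these gave 0.85, 0.54 and 0.87, and the call was lost in both comparisons.

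COL4A1 and COL4A2, the chains of the common collagen IV network, share a start region on chromosome 13 with 127 bases between their starts, and the stretch between them is shown because both genes are read from it (GRCh38.p14, chr13:110307158-110307283, plus strand, the direction of COL4A2, capitals as above).
COL4A1 to COL4A2: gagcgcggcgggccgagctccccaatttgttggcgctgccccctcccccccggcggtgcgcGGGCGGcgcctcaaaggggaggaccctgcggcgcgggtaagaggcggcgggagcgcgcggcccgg
It held 1 GC box match and 0 matches to the other motifs. COL4A1 changed by 0.94 ± 0.67 in NaB/Ctl (adjusted p = 0.000908) and COL4A2 by 0.87 ± 0.54 (adjusted p = 0.0028), higher in 6 of 6 experiments but under 2-fold, and COL4A2 turned to -0.29 with quantile normalization. COL4A1 levels ran from -5.21 to -1.26 (median -3.23) on Ctl and from -4.31 to -0.58 (median -2.34) on NaB arrays and overlapped widely, with experiments 2 to 4 above experiments 1, 5 and 6 in each treatment.

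Other collagens of the epithelial basement membrane zone moved in different directions. COL7A1, the chain of anchoring fibrils, had levels of -2.96 to -1.96 (median -2.38) on Ctl and -1.77 to -1.06 (median -1.20) on NaB arrays, which did not overlap, and rose by 1.05 ± 0.25 (adjusted p = 1.55e-08) and by 1.22 ± 0.26 in DoxyNaB/Doxy (adjusted p = 1.91e-09). The change in NaB/Ctl lay close to 2-fold and was not called under any of the 4 other scalings tried or without experiment 3. That in DoxyNaB/Doxy was 0.93 with normexp correction, 0.87 with quantile normalization and 0.66 with equal medians, and was not called under these. COL18A1, a basement membrane proteoglycan core, changed by 0.73 ± 0.14 and 0.84 ± 0.19 (adjusted p = 3.20e-06 and 5.87e-07), under 2-fold and, with the arrays set to equal medians, by -0.02 and 0.28.

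COL17A1, the transmembrane collagen of hemidesmosomes, passed the background test on 4 of 6 Ctl and 6 of 6 Doxy arrays but on 0 NaB arrays and 1 DoxyNaB array. Its levels were -4.50 to -3.83 (median -3.95) on Ctl and -6.22 to -4.25 (median -5.24) on NaB arrays, where the values give only an upper limit. Against the mean Ctl level, which was not limited to the arrays that passed, it was 1.36-fold lower in NaB or more, so this limit is not firm. The fitted change was -1.14 ± 0.82 (adjusted p = 0.000504). The call was lost without experiment 4 (-0.92) and with normexp correction (-0.50). It was also lost by the methods' t-test, with or without adjustment, and with experiments 5 and 6 only. The fitted change in DoxyNaB/Doxy was -1.29 ± 0.61 (adjusted p = 0.000158), and since 1 of 6 DoxyNaB arrays measured the probe, its size is uncertain. It turned to 0.22 (adjusted p = 0.441) with normexp correction.

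With the scaling used here, the largest collagen rises were in minor fibrillar and fibril-associated chains that were dim without butyrate. COL5A3, a minor chain of collagen V, had levels of -6.61 to -2.50 (median -4.47, 3 of 6 arrays well above background) on Ctl and -3.15 to -1.13 (median -1.71, 6 of 6) on NaB arrays, a change of 2.52 ± 0.93 (adjusted p = 1.11e-06) and of 2.30 ± 0.95 in DoxyNaB/Doxy (adjusted p = 3.45e-06). COL20A1, a fibril-associated collagen, had levels of -6.25 to -4.63 (median -5.07) and -3.31 to -2.56 (median -3.20), a change of 2.19 ± 0.72 (adjusted p = 2.32e-07). COL24A1, a fibrillar chain, had levels of -5.71 to -3.63 (median -5.10) and -3.78 to -1.75 (median -2.84), a change of 2.13 ± 0.49 (adjusted p = 1.20e-06). The groups overlapped for COL5A3 and COL24A1, where experiments 2 to 4 were high in both, and each gene rose in 6 of 6 experiments. The NaB/Ctl calls of all 3 were lost with normexp correction, which left changes of 0.87, 0.46 and 0.59, below COL4A4 at 1.12. COL1A1, which with COL1A2 forms collagen I, changed by 1.09 ± 0.23 in NaB/Ctl, with 1 NaB spot missing, and COL1A2 was not tested.

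By class, 3 of 6 fibrillar, 2 of 5 collagen IV, 1 of 5 fibril-associated and 0 of 2 microfibrillar chains rose in NaB/Ctl, against 21% of all genes. The microfibrillar chains were COL6A1 and COL6A2, with changes of 0.54 ± 0.10 and 0.91 ± 0.17. The other fibril-associated chains had changes between -0.97 (COL9A3) and 0.34 (COL16A1). Among the 3 tested genes that are named for integrins without being a subunit, changes ran from -0.72 (ITGB3BP, a centromere protein) to 0.49 and none was called. Of 10 genes with a further tested probe, 7 changed in the same direction by both probes in NaB/Ctl, and none was called in opposite directions. The exceptions were COL12A1, COL27A1 and ITGB1BP1, whose main probe gave -0.60, -0.48 and -0.12 and whose other probe gave 0.05, 0.32 and 0.22.

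**Figure D4:**
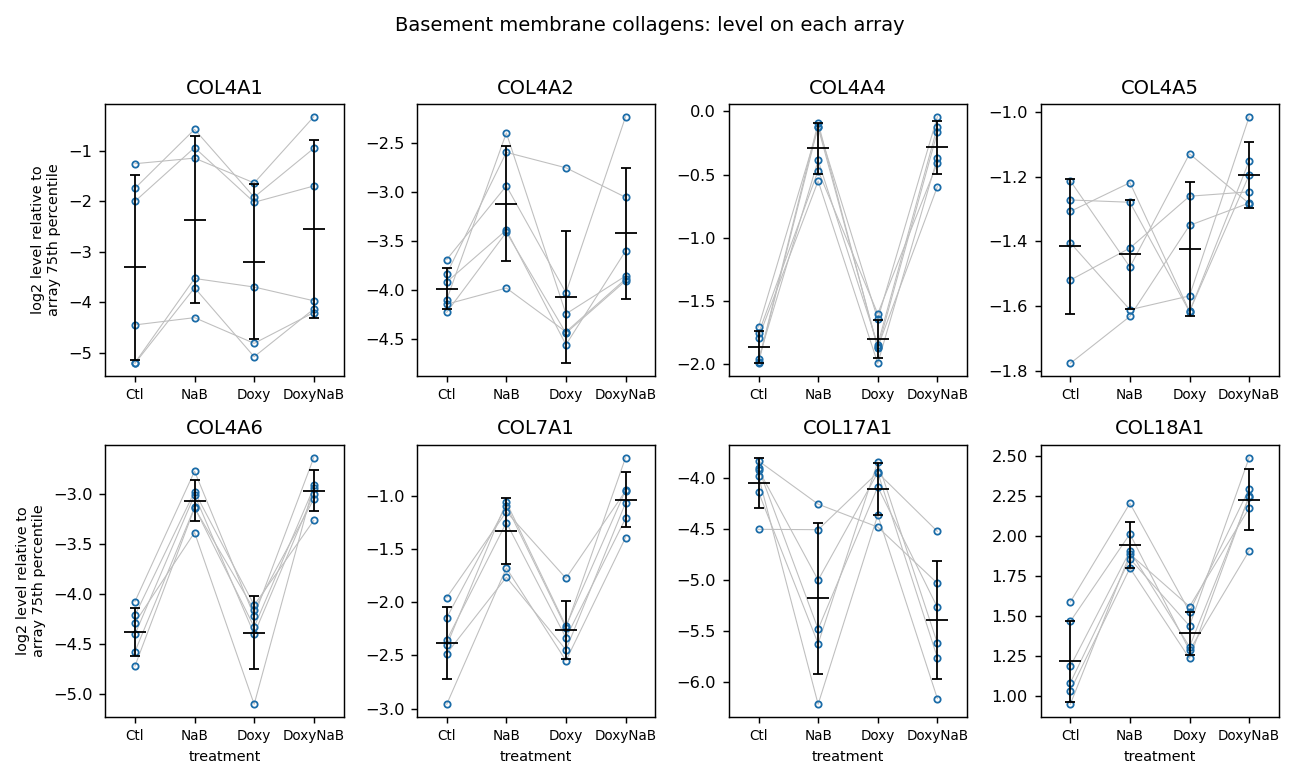
Level (log2, relative to the array's 75th percentile) of 8 collagen chains of the basement membrane zone under the 4 treatments; circles are arrays, grey lines join the arrays of an experiment, black marks give the mean and SD of 6 arrays. COL4A4, COL4A6 and COL7A1 were higher on every butyrate array than on the arrays without butyrate, COL4A5 overlapped, and COL4A1 spread over more than 3 log2 units within a treatment.

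Of the 51 genes, 18 were called in both butyrate comparisons, all 18 in the same direction, and 25 in neither. The fitted change had the same sign in both for 49 genes, among them genes with changes near 0 such as ITGAV and ITGA3. These counts cover the members only, without the share of all genes, so they do not set the members apart. ITGAE, ITGA9 and ITGA10 were called in NaB/Ctl only, and LAMA2, COL5A2, COL6A2, COL9A3 and COL11A2 in DoxyNaB/Doxy only. These calls alone do not show a difference, and in the test of the difference itself 0 of 51 genes passed an adjusted p of 0.01 in limma, against 1.36% of all genes. At an unadjusted p under 0.05 there were 4, LAMA3, LAMA2, ITGAE and COL13A1, and the methods' t-test called 0. The share of all genes at this unadjusted p is not given here, so the 4 are not read as an effect. LAMA3, with the lowest adjusted p of 0.0618, rose by 0.54 ± 0.37 more without doxycycline, in 5 of 6 experiments. The differences were 0.06 for ITGB4, 0.03 for ITGB5 and -0.04 for ITGA7 (adjusted p = 0.912, 0.947 and 0.932).

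**Figure D5:**
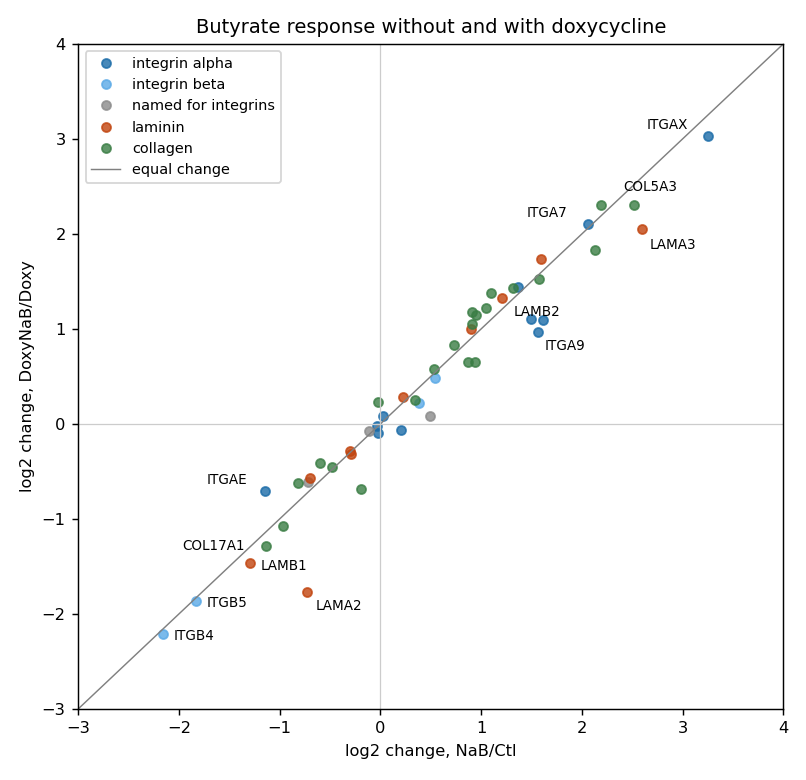
Log2 change in DoxyNaB/Doxy (vertical) against NaB/Ctl (horizontal); each point is 1 of 50 of the 51 tested genes and the line marks equal change. Most genes lie along the line, while LAMA2 (-0.73 and -1.77) lies below it.

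Doxycycline alone changed few of these genes, but by the study's western blot it induced little DN-Tcf4 without butyrate. Doxy/Ctl therefore cannot show how these genes respond to high DN-Tcf4. In Doxy/Ctl 1 of 51 passed an adjusted p of 0.01, against 0.554% of all genes. The count became 0 under the 4 other scalings, without the replicate block and without any of experiments 1, 3, 4, 5 and 6.

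In DoxyNaB/NaB 0 of 51 genes were higher, against 0.693% of all genes, and 1 was lower, against 2.03%. At an unadjusted p under 0.05 there were 12 in either direction, and the methods' t-test called 2 higher without and 0 with adjustment. Shares of all genes at these unadjusted thresholds are not given here, so neither count is read as an effect. The gene that passed was LAMA2, the alpha chain of muscle and nerve basement membranes, measured by a probe that by its coordinates spans an intron (chr6:129875315-129877253, plus strand, NCBI36). Its level was -0.19 to 0.12 (median -0.09) on Ctl, -1.03 to -0.55 (median -0.80) on NaB, -0.56 to -0.12 (median -0.35) on Doxy and -2.71 to -0.85 (median -2.44) on DoxyNaB arrays. The NaB and DoxyNaB groups overlapped through the DoxyNaB array of experiment 2, the array with the highest negative control signal, and the other DoxyNaB values lay below all NaB values.

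LAMA2 was lower in DoxyNaB than in NaB (-1.32 ± 0.74, adjusted p = 0.0011), between -1.92 and -0.04 by experiment. It changed by -0.73 ± 0.24 in NaB/Ctl (adjusted p = 0.0063) and fell in DoxyNaB/Doxy (-1.77 ± 0.76, adjusted p = 9.78e-07). The latter was -0.98 and not called with normexp correction, and the former -1.48 and called with equal medians. The difference between these responses was 1.04 ± 0.66 (adjusted p = 0.112), but 1.22 (adjusted p = 0.0037) without the 2 arrays of highest negative controls and 1.11 (adjusted p = 0.000107) with quantile normalization. With normexp correction the change in DoxyNaB/NaB was -0.52 (adjusted p = 0.327), and leaving out experiment 1, 3, 5 or 6 gave adjusted p = 0.012 to 0.015, which ended the call.

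LAMB3, COL5A2 and ITGA3 did not pass in DoxyNaB/NaB, at changes of 0.25 ± 0.08, 0.77 ± 0.76 and 0.35 ± 0.24, with adjusted p = 0.0235, 0.0263 and 0.0358. In Doxy/Ctl the same genes changed by 0.20, 0.58 and 0.33. Both comparisons were positive for these 3 genes.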

How the data were processed

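Gene expression was measured on 24 single-colour Agilent whole genome arrays. The deposited files hold each array's spot intensity, which per the file headers was written by Agilent Feature Extraction 9.5.3.1 after subtracting background and spatial trend and setting surrogate values for signals near the negative controls. No scaling between arrays had been applied. The authors analysed the arrays in GeneSpring GX with a paired test. Here control spots and outlier spots (359 to 795 per array) were left out, and log2 intensity was set relative to the 75th percentile of the array, 380.2 to 1323 in signal units. The number of arrays limits the precision.

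All 24 arrays were fitted in limma 3.58.1 (R 4.3.3, lmFit and eBayes) with the experiment as a block and p-values adjusted over 18984 probes for 15155 genes, and the fit was tested on simulated data. A gene was represented by its tested probe of highest mean level. Calls needed an adjusted p under 0.01 and, for the butyrate comparisons, a fold over 2. The replicate numbers pair the arrays because the labels number the experiments and the methods name a paired test over 6 biological replicates. Deviations from the treatment means correlated at 0.25 to 0.89 within an experiment, apart from -0.21 between NaB and DoxyNaB of experiment 3. Arrays of different experiments were not correlated in this way, so these values do not test the pairing. Experiments 2 to 6 lay on 1 slide each, experiment 1 on 2 slides with the butyrate arrays apart.

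The genes named are, per family, up to 4 with the largest rise and fall in NaB/Ctl among called genes of constant direction, all that passed a doxycycline comparison or the interaction, and a set of epithelial receptors, laminins and basement membrane collagens; others were named after their values were seen, and 2 genes are not reported here. The members and lists were chosen with earlier results of these data known. Of the 87 symbols 84 are current in RefSeq (GRCh38.p14) and 3 are older, and coordinates of probes are those in the files (NCBI36). Tabulation used pandas 2.3.3 and numpy 2.4.6, and figures matplotlib 3.10.9, under Python 3.11.15. Related lists cover the adhesion complex, collagen-making enzymes, other matrix ligands and other matrix receptors.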

Additional observations from a re-analysis of the deposited data

Results flagged for a closer look

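Among the 32 named and tested genes, each treatment's 6 arrays were searched for a value far from the other 5, that is, with a gap to its neighbour of more than 0.625 of the group's range. This held in 19 of 128 groups (14.8%), while chance marks about 1 in 20. Of the 19 values, 15 came from arrays of experiment 1. On its Ctl array these were ITGA1 at -5.73, ITGA5 at 0.58, ITGAV at 0.57 and ITGB1 at 1.21, and on its NaB array ITGA3 at 2.28, ITGA5 at 0.38, LAMB2 at 3.47 and LAMB3 at 1.42. On its Doxy array they were COL4A6 at -5.10, ITGA3 at 2.65, ITGA5 at 0.49, ITGB1 at 1.21, ITGB5 at 2.59, LAMA5 at 0.89 and LAMB2 at 1.98. The other values far from their group were COL4A2 at -2.75 on the Doxy array of experiment 4, ITGA1 at -3.35 on that of experiment 5, ITGA9 at -2.51 on that of experiment 2 and ITGA6 at 0.38 on the DoxyNaB array of experiment 2. ITGA3, ITGA5 and LAMB2 were high and ITGB1 low in experiment 1 under more than 1 treatment. What sets the arrays of experiment 1 apart was not tested.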

How the results depend on the processing

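The 66 changes of named genes were recomputed under 23 alternatives, and 32 kept direction and call under all that could be run. The counts of called members that follow are given without the shares of all genes under the same alternative, so they describe the members only. Normexp background correction gave 5 higher and 3 lower in NaB/Ctl and 8 higher in DoxyNaB/Doxy. Quantile normalization gave 7 and 9 higher, and scaling to the median 6 higher and 14 lower in NaB/Ctl and 7 and 12 in DoxyNaB/Doxy. Without a filter 26 of 87 genes were higher in NaB/Ctl, and with the filter on all 24 arrays 7 and 9 of 37 were higher and 1 was higher in DoxyNaB/NaB, where fewer genes share the adjustment. A fold over 1.5 gave 11 and 10 lower. COL17A1 in DoxyNaB/Doxy turned to 0.22 with normexp correction. The single call in Doxy/Ctl became 0 with normexp correction, quantile normalization, scaling to the median, the percentile over probes (chosen after seeing the data), no filter, no replicate block, only the arrays compared, the adjusted t-test, experiments 2 to 4 and experiments 5 and 6, and 5 by the unadjusted t-test. The single lower call in DoxyNaB/NaB became 0 with normexp correction, only the arrays compared, the adjusted t-test, experiments 2 to 4 and experiments 5 and 6. The higher calls there became 2 by the unadjusted t-test and 4 at an adjusted p under 0.05. The interaction gave 1 call (LAMA2) with quantile normalization and without the 2 arrays of highest negative controls. Leaving out each experiment in turn gave 15 to 17 higher and 5 lower in NaB/Ctl, 17 to 19 higher and 6 lower in DoxyNaB/Doxy, 0 to 1 in Doxy/Ctl, 0 higher and 0 to 1 lower in DoxyNaB/NaB and 0 for the interaction. Where no other cause is given above, the cause was not tested.

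Without the replicate block 14 members were higher and 5 lower in NaB/Ctl and 16 and 6 in DoxyNaB/Doxy, and with the slide as block 15 and 5, and 17 and 6. Of the 51 tested genes, 16 were not well above background on all 24 arrays, 2 of them through a flagged spot.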

Other observations

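Genes that work with integrins, laminins and collagens were read from the same limma fit. Here too a gene could enter the test only through the treatment in which it was high, so the counts are descriptions. Shares of all genes are not given for the other scalings or for unadjusted p-values. In the integrin adhesion complex, the cytoplasmic proteins that bind integrin tails, 6 of 34 tested genes rose and 6 fell in NaB/Ctl (17.6% each, against 21% and 11.5% of all genes), with a median change of 0.08. The counts were 2 and 15 with the arrays set to equal medians. Among those with the largest changes were NEDD9, a docking protein, at 2.83 ± 0.84 (adjusted p = 1.21e-07), and FERMT1, the epithelial kindlin that activates integrins, at -2.64 ± 0.15 (adjusted p = 5.18e-15). In DoxyNaB/NaB 2 of the 34 were higher and 2 lower (5.88% each, against 0.693% and 2.03% of all genes). FERMT1 was higher by 0.63 and PXN (paxillin) by 0.49, and TNS4 (a tensin) was lower at -1.01 and TES (testin) at -0.64 (adjusted p = 4.18e-05, 0.000253, 7.69e-07 and 6.35e-05). TNS4 and TES also passed the interaction test (adjusted p = 0.000116 and 0.00154), and FERMT1 did not (adjusted p = 0.0673). That is 5.88% of the 34, against 1.36% of all genes. Among the enzymes and chaperones that make collagen 4 of 26 rose and 7 fell in NaB/Ctl (15.4% and 26.9%, against 21% and 11.5% of all genes). The counts were 4 and 13 with equal medians. The called genes were led by P4HA3, a prolyl hydroxylase subunit, at 3.55 ± 0.89, TLL2, a procollagen protease, at 2.77 ± 0.57, and SERPINH1, the collagen chaperone, at -2.77 ± 0.21 (adjusted p = 7.44e-09, 8.72e-08 and 2.29e-14). NEDD9, P4HA3 and TLL2 each passed the background test on 3 of 6 Ctl arrays, and with normexp correction the changes of NEDD9 and TLL2 were 0.70 and 0.77 and no longer called.

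Of 34 other matrix ligands on the array 20 were tested, of which 11 rose (55%) and 0 fell in NaB/Ctl and in DoxyNaB/Doxy. Among those that rose, VWF passed the background test on 3 of 6 Ctl arrays, and EMILIN1, SPP1 and TGFBI on 5 of 6. Over all genes 21% rose and 11.5% fell in NaB/Ctl, and 18.7% and 12.5% in DoxyNaB/Doxy. At an unadjusted p under 0.05 in limma, 4 of the ligands were lower in each comparison. The median changes were 1.22 and 1.03, beside 0.17 and 0.11 over all genes. The counts in NaB/Ctl depended on the scaling, with 4 rising and 0 falling after normexp correction, 7 and 1 after quantile normalization and 7 and 4 with equal medians. The largest were THBS1 (thrombospondin) at 3.94 ± 0.32, SPP1 (osteopontin) at 3.30 ± 0.43 and TNC (tenascin) at 2.96 ± 0.66, all higher in 6 of 6 experiments (adjusted p = 8.86e-14, 8.43e-13 and 1.97e-08). TNC passed the background test on 2 of 6 Ctl arrays and changed by 0.71, not called, with normexp correction. Of 17 other matrix receptors 3 rose and 3 fell in NaB/Ctl (17.6% each, against 21% and 11.5% of all genes), and 1 and 8 with equal medians. CD44, the hyaluronan receptor, changed by -2.80 ± 0.17, the tetraspanin CD82 by 2.73 ± 0.22 and the proteoglycan SDC4 by 1.68 ± 0.24 (adjusted p = 5.06e-15, 6.30e-15 and 5.99e-12). With equal medians SDC4 changed by 0.93 and was not called.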
